A study of Mus musculus with 6 samples.

Results

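NRF2, encoded by NFE2L2, is the transcription factor that drives much of the antioxidant defence of the cell. The adaptor KEAP1 holds it for degradation until electrophiles or oxidants modify KEAP1, and the stabilised factor then pairs with small MAF proteins on antioxidant response elements. Its targets make glutathione, reduce oxidised glutathione and thioredoxin, and supply the NADPH that these reductions consume. Much of the control of NRF2 acts on the protein, which was not measured here. The genes described are NFE2L2 and 8 of its classical targets, chosen by symbol: NQO1, GCLC, GCLM, TXNRD1, SRXN1, GSR, PGD and ME1. All 9 had 1 row each among the 20323 gene rows of the deposited table, and all 9 passed the filter on low counts that left 11970 genes for testing.

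The libraries came from RFB, a line labelled as kidney fibroblasts. In 3 libraries the cells were given TGF-β plus CXCL10, a ligand of the receptor CXCR3. The other 3 libraries were from cells given TGF-β alone, the cytokine used to push fibroblasts toward a fibrotic state, so that all 6 libraries carry TGF-β. The titles of the CXCL10 libraries give a volume of 5 µl, with no concentration, and no label gives a time or says whether replicates were separate cultures. The labels name the organism as mouse, whereas every row has a human Ensembl identifier and a human gene name, so the levels below refer to human gene models. A SUV39H1 knockdown appears in the design text and in no sample label, and the groups follow the sample labels.

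Library totals were 12838106 to 14470051 counts with CXCL10 and 13068015 to 15587409 with TGF-β alone, and the 9 genes held 191 to 7356 counts each per library. Of 10 fibroblast markers all were tested, with summed levels of 50399 to 54688 scaled CPM with CXCL10 and 52745 to 60205 with TGF-β alone, most of it COL1A1. In an edgeR fit paired by replicate number 2 of the 10 rose, VIM with a log2 change of 0.38 (adjusted p = 6.98e-05) and THY1 with 0.43 (0.000868). The same fit called 3 lower, the matrix genes LUM, DCN and COL1A1, with log2 changes of -0.32, -0.25 and -0.14 (edgeR adjusted p = 0.000361, 0.00411 and 0.00835). It called 9.71% of all tested genes higher and 8.04% lower. The labels do not give this pairing. Without it edgeR called 0 of the 10, with adjusted p of 0.161 for VIM, THY1, LUM and DCN and 0.279 for COL1A1. The kidney tubule markers LRP2, SLC34A1, UMOD, AQP2 and CDH16 had 0 counts in every library, and the tubule list summed to 6.89 to 10.4 CPM with CXCL10 and 8.38 to 10.7 with TGF-β alone, most of it PAX8, which passed neither edgeR test. The epithelial cadherin CDH1 had 3, 6 and 19 counts (0.211, 0.474 and 1.42 CPM) in CXCL10 replicates 1, 2 and 3, against 22, 32 and 49 counts (1.55, 1.99 and 3.68 CPM) in TGF-β replicates 1, 2 and 3. Its groups did not overlap, and it fell in the paired fit, with a log2 change of -1.89 (SE 0.43, edgeR adjusted p = 0.00898; 0.176 unpaired). The part of these markers in the changes of the 9 genes was not tested. Of 8 endothelial and 8 leukocyte markers 2 and 3 were tested, with sums of 48.4 to 52.6 and 42.4 to 48.5 CPM with CXCL10, and 50.6 to 52.1 and 42.5 to 48.0 with TGF-β alone. EMCN and CD3E had 0 counts throughout. TEK, an endothelial receptor, and CD68, a macrophage marker, held most of these sums. Replicate 1 of each group stood apart from replicates 2 and 3 of its own group. TGF-β replicate 1 scored -5.54 on the first principal component, nearer to -32.8, -9.78 and -9.67 for CXCL10 replicates 1, 2 and 3 than to 28.3 and 29.5 for TGF-β replicates 2 and 3.

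With CXCL10 the means of the 9 genes were 80.0% to 98.3% of those with TGF-β alone. The lowest relative to TGF-β alone were ME1, GSR and TXNRD1, at 80.0%, 80.6% and 82.4% of their TGF-β means. GCLM and SRXN1 were close to level, at 97.1% and 98.3%. In an edgeR quasi-likelihood test that pairs libraries by replicate number, TXNRD1, GSR and ME1 fell and 0 of the 9 rose, at a threshold of 0.05 on p-values adjusted over all tested genes. That fit called 8.04% of all tested genes lower and 9.71% higher. Without the pairing, which was the principal test, 0 of the 9 genes and 0% of all genes were called in either direction. TXNRD1, GSR and ME1 then had an unadjusted p under 0.05, all lower, as had 10% of all genes in that direction and 20.5% in either. DESeq2 without pairing also called 0 of the 9, beside 1.65% of all genes lower and 1.74% higher, and 0 of the 9 had an adjusted p under 0.05 in the authors' deposited table, beside 112 genes higher and 97 lower (0.551% and 0.477% of the 20323 rows).

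The median log2 change of the 9 genes was -0.14 in both edgeR fits, with a range of -0.32 to -0.03 in the paired one, beside a median of -0.01 over all tested genes. All 9 estimates were below 0, as were 51.3% of those over all genes. Their summed level was 938, 1077 and 1088 scaled CPM in CXCL10 replicates 1, 2 and 3, against 1095, 1224 and 1223 in TGF-β replicates 1, 2 and 3. The CXCL10 sums all lay below the TGF-β sums, but TGF-β replicate 1 exceeded the highest CXCL10 library by little. In a bulk library fewer cells of a kind and less RNA per cell cannot be told apart. For 5 of the 9 genes, NQO1, TXNRD1, GSR, PGD and ME1, every CXCL10 library lay below every TGF-β library, which held for 11.2% of all tested genes. With library totals alone as the scaling, the paired fit called NFE2L2 and PGD lower besides TXNRD1, GSR and ME1, and its split over all genes turned to 877 higher and 1359 lower, against 1162 and 962 with TMM scaling.

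**Figure D1:**
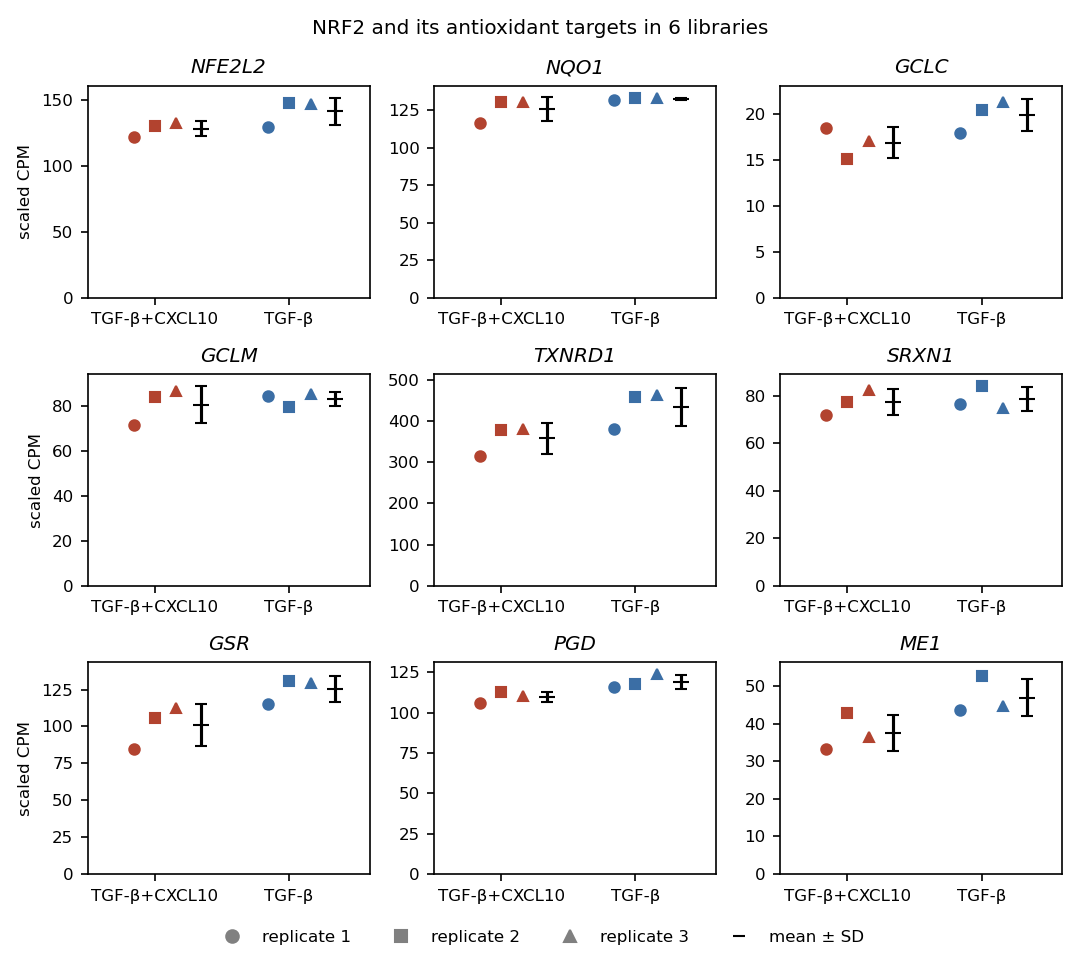
Scaled CPM (linear axis from 0) of NFE2L2 and 8 of its targets in each TGF-β+CXCL10 library (red) and each TGF-β library (blue); the marker shape gives the replicate number and the black bar the mean ± SD of 3 libraries. For NQO1, TXNRD1, GSR, PGD and ME1 the red points lie below the blue ones, by as little as 0.133 CPM for TXNRD1. The same held for 11.2% of all tested genes. For NFE2L2, GCLC, GCLM and SRXN1 the groups overlap.

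On a scale per transcript length, the deposited FPKM ordered the genes in the same way in all 6 libraries. TXNRD1 stood highest, at 103 to 147 FPKM, followed by NQO1 at 85.7 to 104. NFE2L2 (49.1 to 63.1 FPKM) and PGD (47.5 to 57.1) came next, then GSR (29.0 to 45.6) and SRXN1 (27.9 to 34.3). GCLM (16.5 to 20.7 FPKM), ME1 (9.81 to 16.2) and GCLC (4.89 to 7.04) were lowest. The ranges over libraries overlapped within the pairs TXNRD1 and NQO1, NFE2L2 and PGD, and GSR and SRXN1, and not between any other neighbours in the order.

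NFE2L2 (ENSG00000116044), the transcription factor itself, had 122, 130 and 133 scaled CPM in CXCL10 replicates 1, 2 and 3, against 130, 148 and 147 in TGF-β replicates 1, 2 and 3. The groups overlapped, because TGF-β replicate 1 lay among the CXCL10 libraries. The means were 128 ± 5.62 CPM with CXCL10 and 141 ± 10.1 CPM with TGF-β alone (SD, n = 3 each). The paired log2 change of -0.14 (SE 0.05) did not pass (edgeR adjusted p = 0.0713 paired and 0.298 unpaired), although each of the 3 pairs was negative, at -0.09, -0.19 and -0.15. Without TGF-β replicate 1, the library that lay among the CXCL10 ones, NFE2L2 passed in the unpaired fit, which then called 8.61% of all genes lower. Without both libraries of replicate 1 it passed in the paired fit, which then called 10.9% lower.

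NQO1 (ENSG00000181019) encodes a quinone reductase and is a standard readout of NRF2 activity. It had 116, 130 and 130 CPM in CXCL10 replicates 1, 2 and 3, against 132, 133 and 133 in TGF-β replicates 1, 2 and 3. The groups did not overlap, yet CXCL10 replicate 1 alone was clearly lower than the rest. The paired log2 change was -0.08 (SE 0.05) and passed in neither fit (edgeR adjusted p = 0.342 paired and 0.526 unpaired). Pair 1 differed by -0.18 and pairs 2 and 3 by -0.03 each.

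Glutamate-cysteine ligase makes the dipeptide from which glutathione is built, with GCLC as its catalytic and GCLM as its modifier subunit. GCLC (ENSG00000001084) had 18.5, 15.1 and 17.0 CPM in CXCL10 replicates 1, 2 and 3, against 18.0, 20.4 and 21.3 in TGF-β replicates 1, 2 and 3. The pairs did not go the same way: pair 1 differed by 0.04 and pairs 2 and 3 by -0.43 and -0.32. Its paired log2 change of -0.24 (SE 0.12) did not pass (edgeR adjusted p = 0.191; 0.290 unpaired). GCLC passed without both libraries of replicate 1, in a fit that called 10.9% of all genes lower. GCLM (ENSG00000023909) had 71.2, 83.7 and 86.4 CPM in CXCL10 replicates 1, 2 and 3, against 84.3, 79.1 and 85.1 in TGF-β replicates 1, 2 and 3. The groups overlapped, and the change of -0.05 (SE 0.07) passed no test (edgeR adjusted p = 0.704 paired and 0.810 unpaired). The ratio of GCLC to GCLM counts was 0.260, 0.180 and 0.197 with CXCL10 and 0.213, 0.258 and 0.250 with TGF-β alone, so that the balance of the subunit transcripts overlapped between the groups.

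GSR (ENSG00000104687) encodes glutathione reductase, which returns oxidised glutathione to its reduced form with NADPH. It had 84.8, 106 and 112 CPM in CXCL10 replicates 1, 2 and 3, against 115, 131 and 130 in TGF-β replicates 1, 2 and 3. CXCL10 replicate 1 was the lowest of all, and the lowest TGF-β library exceeded the highest CXCL10 library by 3.10 CPM. GSR averaged 101 ± 14.4 CPM with CXCL10 and 125 ± 8.74 CPM with TGF-β alone (SD, n = 3 each). It fell in the paired fit by 0.32 on the log2 scale (SE 0.06, edgeR adjusted p = 0.00192; 0.169 unpaired). The 3 pairs differed by -0.44, -0.31 and -0.21. Replicate 1 differed from the mean of replicates 2 and 3 by -0.36 within the CXCL10 group and by -0.18 within the TGF-β group.

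TXNRD1 (ENSG00000198431), the cytosolic selenoprotein that reduces thioredoxin, had 314, 379 and 380 CPM in CXCL10 replicates 1, 2 and 3. In TGF-β replicates 1, 2 and 3 it had 380, 458 and 463 CPM. TGF-β replicate 1 thus stood level with CXCL10 replicates 2 and 3. The means were 358 ± 37.8 CPM with CXCL10 and 434 ± 46.5 CPM with TGF-β alone (SD, n = 3 each). TXNRD1 fell in the paired fit by 0.28 on the log2 scale (SE 0.04, edgeR adjusted p = 0.000862; 0.183 unpaired). The pairs were close together, at -0.28, -0.27 and -0.29, and the shift of replicate 1 from replicates 2 and 3 was as large, at -0.27 within the CXCL10 group and -0.28 within the TGF-β group. What replicate 1 differs by was not tested. SRXN1 (ENSG00000271303), the sulfiredoxin that repairs overoxidised peroxiredoxins, had 71.8, 77.5 and 82.7 CPM in CXCL10 replicates 1, 2 and 3, against 76.8, 84.3 and 74.8 in TGF-β replicates 1, 2 and 3. These groups overlapped throughout, and the change of -0.03 (SE 0.07) passed no test (edgeR adjusted p = 0.847 paired and 0.896 unpaired).

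PGD (ENSG00000142657), an NADPH-producing enzyme of the pentose phosphate pathway, had 106, 112 and 111 CPM in CXCL10 replicates 1, 2 and 3. In TGF-β replicates 1, 2 and 3 it had 116, 117 and 124 CPM. The groups did not overlap, and replicate 1 was the lowest library of each group. On the log2 scale it differed from the mean of replicates 2 and 3 by -0.07 within the CXCL10 group and by -0.06 within the TGF-β group. The paired change of -0.12 (SE 0.05) was small and did not pass (edgeR adjusted p = 0.143 paired and 0.316 unpaired). ME1 (ENSG00000065833), the cytosolic malic enzyme that forms NADPH from malate, had 33.3, 42.8 and 36.4 CPM in CXCL10 replicates 1, 2 and 3, against 43.5, 52.6 and 44.6 in TGF-β replicates 1, 2 and 3. Replicate 2 was the highest library in each group, and the groups were 0.693 CPM apart. ME1 fell in the paired fit by 0.32 on the log2 scale (SE 0.07, edgeR adjusted p = 0.00871; 0.184 unpaired), with pairs at -0.38, -0.30 and -0.29. The ME1 call was lost without the libraries of replicate 3 (edgeR adjusted p = 0.0597), with paired DESeq2 (0.0554), which called 3.87% of all genes lower, and with paired limma-trend on FPKM (0.0622). TXNRD1 and GSR passed in these 3 fits. Of all genes, 3.02% were called lower without the libraries of replicate 3 and 2.94% with paired limma-trend.

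**Figure D2:**
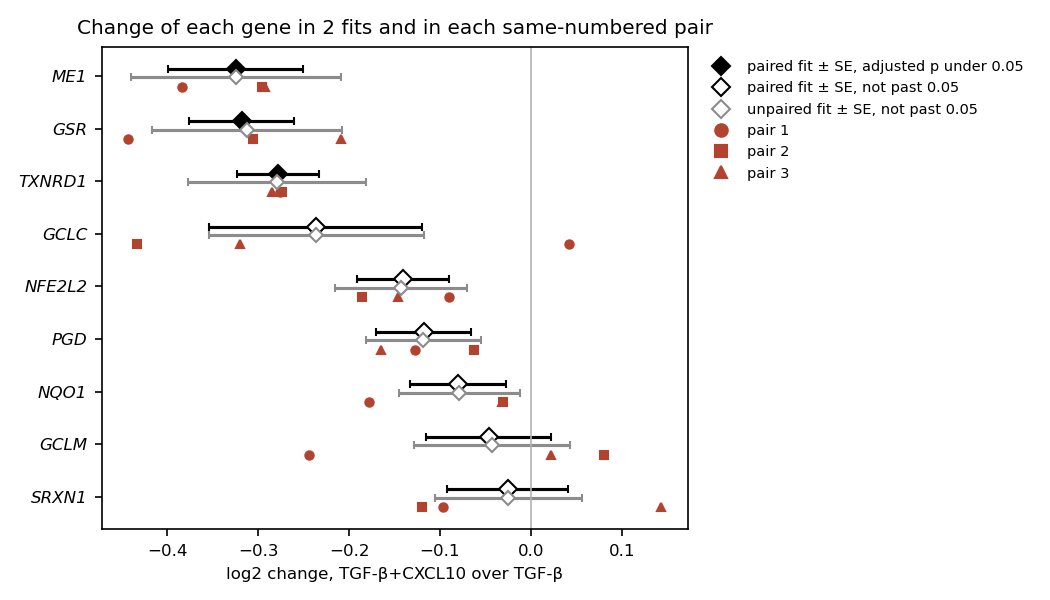
Log2 change of each gene, TGF-β+CXCL10 over TGF-β, in the fit paired by replicate number (black) and in the unpaired fit (grey), with bars of 1 SE, and the difference within each same-numbered pair (red). TXNRD1, GSR and ME1 (filled) passed in the paired fit, and their 3 pairs all lie below -0.20.

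A ratio of counts within a library does not depend on how libraries are scaled, so the targets were also set against NQO1. GSR per NQO1 was 0.729, 0.814 and 0.862 in CXCL10 replicates 1, 2 and 3, against 0.875, 0.985 and 0.975 in TGF-β replicates 1, 2 and 3. ME1 per NQO1 was 0.286, 0.329 and 0.280 with CXCL10 and 0.330, 0.396 and 0.335 with TGF-β alone. Neither ratio overlapped between the groups, though the highest CXCL10 and lowest TGF-β values of ME1 nearly met. NQO1 itself was lower in every CXCL10 library, at 94.7% of its TGF-β mean. How many of all genes separate the groups in this ratio was not computed. In scaled CPM 11.2% of all genes lay wholly lower and 11.1% wholly higher with CXCL10. TXNRD1 per NQO1 was 2.70, 2.91 and 2.92 with CXCL10 and 2.89, 3.44 and 3.48 with TGF-β alone, where TGF-β replicate 1 lay within the CXCL10 range. For NFE2L2, PGD, SRXN1, GCLM and GCLC the ratio to NQO1 overlapped between the groups.

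The deposited counts and FPKM gave different ratios for GCLC. In the authors' deposited table its mean was 5.59 FPKM with CXCL10 and 5.94 with TGF-β alone, a log2 ratio of -0.09. The counts gave -0.24 with TMM scaling and -0.28 with library totals, the scaling that FPKM imply, both in the unpaired edgeR fit. A count divided by its FPKM and by the library total implies the transcript length that the authors used. For GCLC this length was 3027, 2889 and 2989 bases in CXCL10 replicates 1, 2 and 3, against 3653, 2990 and 3671 bases in TGF-β replicates 1, 2 and 3. TGF-β replicates 1 and 3 thus stand apart from the other 4 libraries. The range was 24.4% of the mean, and 16.9% of 8958 genes with a mean of at least 100 counts had a range that wide or wider. For TXNRD1 the implied length was shorter in every CXCL10 library, at 3003, 3073 and 3112 bases in replicates 1, 2 and 3, against 3218, 3248 and 3204 bases in TGF-β replicates 1, 2 and 3. All CXCL10 lengths lay below all TGF-β lengths for 5.66% of the genes examined. The SRXN1 length of 2528 bases and the ME1 length of 3338 bases did not vary, with a range under 0.01% of the mean. The authors' log2 ratios for TXNRD1, GSR and ME1 were -0.25, -0.37 and -0.37, with adjusted p of 0.157, 0.150 and 0.230 in the authors' deposited table. Counts scaled by library totals gave -0.32, -0.36 and -0.37 in the unpaired edgeR fit. Whether the varying length reflects a different mix of transcripts was not tested.

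**Figure D3:**
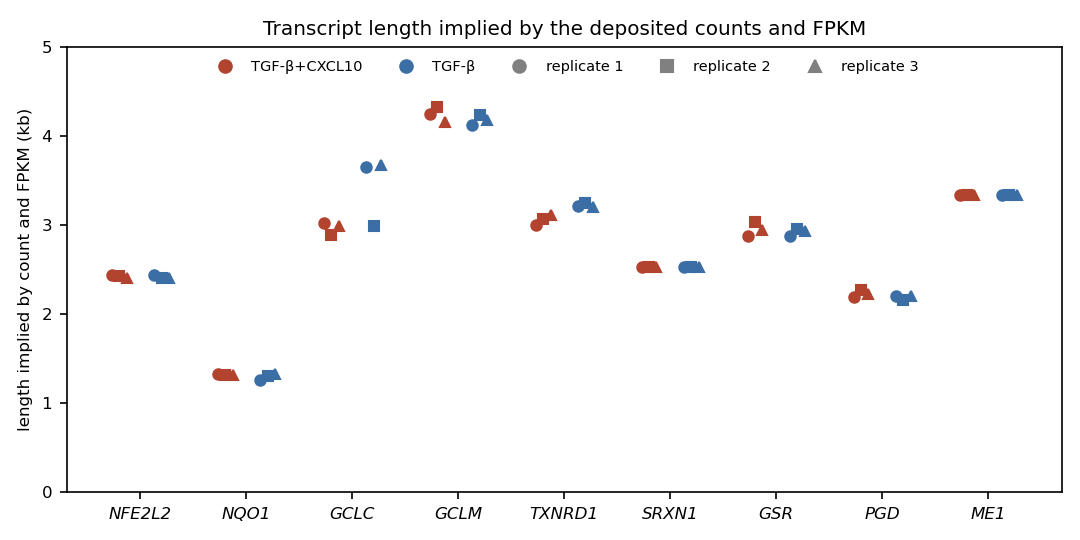
Transcript length in kilobases implied by the deposited count, FPKM and library total of each gene in each TGF-β+CXCL10 library (red) and TGF-β library (blue), with the marker shape giving the replicate number. GCLC reaches 3653 and 3671 bases in TGF-β replicates 1 and 3, against 2889 to 3027 bases in the other 4 libraries, while SRXN1 and ME1 do not vary.

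The wider antioxidant system was followed in 6 further lists with 108 genes that had a row, 93 of them tested. The lists were chosen with earlier results of these data known, and their joint counts after seeing the data. The shares therefore describe the lists and test nothing. In the paired fit 20 of the 93 tested genes fell and 8 rose, which is 21.5% and 8.60%, beside 8.04% and 9.71% over all tested genes. Their median log2 change was -0.11. Without the pairing 0 were called by edgeR, as were 0% of all genes. DESeq2 called 4 in each direction, beside 1.65% of all genes lower and 1.74% higher. Without both libraries of replicate 1 the paired fit called 24 lower and 9 higher. Without those of replicate 2 it called 12 and 8, and without those of replicate 3 it called 7 lower and 6 higher. The share of all genes called changed too. In these 3 fits 10.9%, 4.67% and 3.02% of all genes were called lower, and 1533, 680 and 539 genes higher.

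Of 11 tested NRF2 regulators and partners, 2 rose and 1 fell in the paired fit, beside 9.71% and 8.04% of all tested genes. The median of this list was 0.01. The small MAF genes MAFF and MAFK, whose products have no activation domain and partner NRF2 on DNA, were the ones that rose. MAFF had 22.0, 13.2 and 12.1 CPM in CXCL10 replicates 1, 2 and 3, against 11.7, 6.48 and 5.86 in TGF-β replicates 1, 2 and 3, a paired log2 change of 0.99 (SE 0.13, edgeR adjusted p = 0.000199; 0.161 unpaired). MAFK had 91.1, 84.4 and 77.6 CPM with CXCL10 and 75.4, 52.6 and 52.8 with TGF-β alone, a change of 0.50 (SE 0.08, edgeR adjusted p = 0.000604; 0.161 unpaired). MAFG, of the same family, had 59.5 ± 6.11 CPM with CXCL10 and 64.9 ± 9.64 CPM with TGF-β alone (SD, n = 3 each) and passed neither edgeR test. In the paired fit its log2 change was -0.33 without both libraries of replicate 1 (edgeR adjusted p = 0.000498). It was -0.0141 without those of replicate 2 and -0.00377 without those of replicate 3 (edgeR adjusted p = 0.960 and 0.990). For MAFF and MAFK replicate 1 was the highest of its group, and TGF-β replicate 1 lay just under the lowest CXCL10 library. SQSTM1, an autophagy receptor that binds KEAP1 and is itself an NRF2 target, had 423, 430 and 441 CPM with CXCL10, against 445, 615 and 601 with TGF-β alone. It fell in the paired fit by 0.35 (log2, SE 0.07, edgeR adjusted p = 0.00385; 0.161 unpaired). DESeq2 without pairing called all 3 of these genes, with adjusted p of 0.0246 for MAFF, 0.0271 for MAFK and 0.0493 for SQSTM1. KEAP1 itself, with 50.9 ± 3.66 CPM with CXCL10 and 53.1 ± 2.40 CPM with TGF-β alone (SD, n = 3 each), passed no test. MAFG and KEAP1 were named after their values were seen.

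Among 24 genes of glutathione synthesis and use, 6 fell and 2 rose in the paired fit, beside 8.04% and 9.71% of all tested genes. The median of this list was -0.17. GSTO1, an omega-class glutathione transferase, had 114, 86.7 and 89.5 CPM in CXCL10 replicates 1, 2 and 3, against 89.7, 49.6 and 53.7 in TGF-β replicates 1, 2 and 3, and rose by 0.62 (log2, SE 0.08, edgeR adjusted p = 0.000192; 0.179 unpaired). The glutaredoxin GLRX rose by 0.53 (SE 0.08, edgeR adjusted p = 0.000349; 0.238 unpaired). For both, TGF-β replicate 1 lay within the CXCL10 range. GPX4, the peroxidase that reduces lipid hydroperoxides, fell by 0.21 (log2, SE 0.05, edgeR adjusted p = 0.0110 paired and 0.184 unpaired). The microsomal transferase MGST1 fell by 0.33 (SE 0.09, edgeR adjusted p = 0.0225 paired and 0.176 unpaired) and passed in 5 of 19 alternatives. SLC7A11, the cystine importer that feeds glutathione synthesis and a well-known NRF2 target, had 286 ± 8.42 CPM with CXCL10 and 315 ± 13.6 CPM with TGF-β alone (SD, n = 3 each) and did not pass (paired edgeR adjusted p = 0.0688). It passed in 3 of 19 alternatives and was named after its value was seen.

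The thioredoxin and peroxiredoxin list went both ways, with 3 of 14 lower and 2 higher in the paired fit and a median of -0.01. Over all tested genes that fit called 8.04% lower and 9.71% higher. PRDX6 and PRDX1, peroxidases of the peroxiredoxin family, rose by 0.45 (log2, SE 0.06) and 0.24 (SE 0.05). Their paired edgeR adjusted p was 0.000180 and 0.00633, and the unpaired one 0.162 and 0.238. PRDX6 had 419, 354 and 348 CPM in CXCL10 replicates 1, 2 and 3, against 349, 244 and 236 in TGF-β replicates 1, 2 and 3, so TGF-β replicate 1 stood level with CXCL10 replicate 3. The sestrins SESN1 and SESN2, stress-induced inhibitors of mTORC1 signalling, fell by 0.63 (log2, SE 0.10) and 0.55 (SE 0.05). Paired edgeR gave them adjusted p of 0.000661 and 2.20e-05, and unpaired edgeR 0.161 for both. SESN1 had 18.2, 18.0 and 20.2 CPM with CXCL10 and 25.1, 29.8 and 32.5 with TGF-β alone, without overlap, and DESeq2 called it without pairing (adjusted p = 0.00626).

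Of 16 tested genes of NADPH supply, 3 fell and 0 rose in the paired fit, beside 8.04% and 9.71% of all tested genes. The median of this list was -0.08. IDH1, the cytosolic isocitrate dehydrogenase, had 175, 203 and 191 CPM in CXCL10 replicates 1, 2 and 3, against 202, 275 and 269 in TGF-β replicates 1, 2 and 3. It fell by 0.38 (log2, SE 0.06, edgeR adjusted p = 0.000584; 0.161 unpaired), while TGF-β replicate 1 lay just below CXCL10 replicate 2. The mitochondrial malic enzyme ME3 fell by 0.48 (SE 0.15), close to the threshold (edgeR adjusted p = 0.0430 paired and 0.178 unpaired). ME3 passed in 4 of 19 alternatives. The mitochondrial folate enzyme ALDH1L2 fell by 0.22 (SE 0.05, edgeR adjusted p = 0.00437 paired and 0.202 unpaired).

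Among 23 other tested NRF2 targets, 7 fell and 2 rose in the paired fit, beside 8.04% and 9.71% of all tested genes. The median of this list was -0.19. HMOX1, the inducible haem oxygenase, had 17.0, 23.4 and 23.2 CPM in CXCL10 replicates 1, 2 and 3, against 20.6, 36.8 and 37.4 in TGF-β replicates 1, 2 and 3. It fell by 0.55 (log2, SE 0.10, edgeR adjusted p = 0.00230; 0.195 unpaired), and TGF-β replicate 1 lay below 2 of the CXCL10 libraries. The ferritin chains FTL and FTH1, whose reads can be shared with processed copies, fell by 0.26 and 0.28 (log2, SE 0.04 each). Their edgeR adjusted p was 0.000572 and 0.000417 paired, and 0.161 for both unpaired. UGDH, which makes UDP-glucuronate, rose by 0.40 (log2, SE 0.06, edgeR adjusted p = 0.000546 paired and 0.161 unpaired). Of 5 tested genes for superoxide dismutases, catalase and oxidant sources, 0 were called in either fit. CYBA, a subunit of NADPH oxidases, had 81.4 ± 5.18 CPM with CXCL10 and 77.3 ± 6.42 CPM with TGF-β alone (SD, n = 3 each). SOD1 had 53.4 ± 3.55 CPM with CXCL10 and 59.0 ± 0.63 CPM with TGF-β alone (SD, n = 3 each), and NOX4, an oxidase often linked to TGF-β in fibroblasts, had 0 counts in each library, which allows a level of up to 0.192 to 0.234 CPM.

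**Figure D4:**
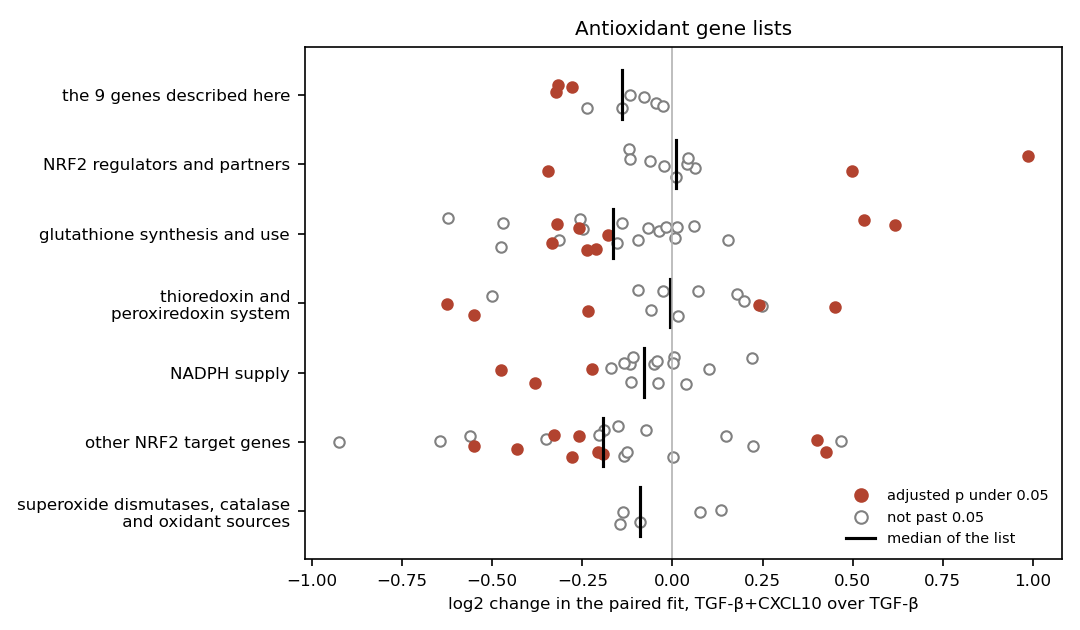
Log2 change in the paired fit, TGF-β+CXCL10 over TGF-β, of every tested gene in the 9 genes described here and in 6 further antioxidant lists; filled points passed an adjusted p of 0.05 and the black line is the list median. Red points lie on both sides of 0 for regulators, glutathione, thioredoxin and other target genes, and below 0 for the 9 genes and for NADPH supply.

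The mean profile of the 9 genes over the 6 libraries, as log2 CPM centred per gene, was -0.19, -0.04 and -0.02 in CXCL10 replicates 1, 2 and 3, against 0.01, 0.14 and 0.12 in TGF-β replicates 1, 2 and 3. Apart from TGF-β replicates 2 and 3, which changed places, the libraries lay in the same order on the first principal component of all tested genes. NFE2L2 followed this profile most closely, with a root mean square difference of 0.03, and GCLC least, at 0.14. Of 9696 other genes averaging 5 CPM or more, the nearest to it were XPOT, which exports tRNAs from the nucleus, the endolysosomal channel gene TPCN1, METTL9, KHNYN and the receptor phosphatase gene PTPRJ, with differences of 0.02 each.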

How the data were processed

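The authors' deposited table holds, per the file headers, raw counts and FPKM per gene and library, with the authors' mean FPKM, log2 ratio and p-values. FPKM and counts imply division by library totals. Per the labels' protocols, a Qiagen RNeasy kit gave the RNA and a SMARTer kit the libraries. Mouse builds (GRCm38, mm10) stand in the submitters' processing notes, but 0 of 20323 row identifiers match the mouse annotation. The sources used here name no aligner or counter and do not say whether strand was used. No human genome or sequence was used, so no coordinates or sequences are printed.

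The main test was the quasi-likelihood test of edgeR 4.0.16 under R 4.3.3 (TMM scaling, filterByExpr at 10 counts and a total of 15, Benjamini-Hochberg over 11970 genes, threshold 0.05). SE is the log2 change over the root of its F statistic. Scaled CPM uses the TMM library sizes, and log2 CPM a prior count of 2. Alternatives used DESeq2 1.42.0 and limma 3.58.1 on log2(FPKM + 1), and the scripts were tested on simulated data. The test without a replicate block was principal. Libraries with the same number deviated together from their groups, with correlations of 0.330, 0.121 and 0.163 over genes, each above 0.1, so paired values are also given. The highest correlation between differently numbered libraries was 0.0825, close to that of replicate 2. Each group was centred on its own mean, so a shift of replicate 1 in both groups also makes replicates 2 and 3 deviate together. The 3 correlations are therefore not 3 separate supports for the pairing. The pairing comes from the counts, not the labels, and is clearest for replicate 1, so every paired call rests on it. P-values measure the spread between libraries, which may be technical. Library totals of 12838106 to 15587409 set the counting precision, and a count of 0 allows up to 3 counts, or 0.192 to 0.234 CPM, for counting error only. Libraries of a group differed by more than sampling noise in every pair (chi-square per degree of freedom of 2.79 to 18.3).

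The 9 genes and the lists were chosen with earlier results of these data known. Named genes were the 9, up to 4 per list with the lowest paired p among those past the threshold (with fewer than 2, the 2 highest by FPKM), and the 5 nearest to the mean profile. MAFG, KEAP1, SLC7A11, NOX4, COL1A1, markers at 0 counts and the genes of the KEGG maps were named outside this rule, after their values were seen. For symbols with several rows the row with most counts was kept.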

Additional observations from a re-analysis of the deposited data

How the results depend on the processing

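The counts of calls, the median of the 9 genes and the change of each gene named by rule, with KEAP1, MAFG, SLC7A11, ODC1, SRM and SMS added after seeing the data, were recomputed under 19 alternatives (18 for CDH1, VWF and CSF1R, which average under 5 CPM). The count ratios, implied lengths, FPKM order and nearest profiles were not. Of the 9 genes, 0 were called higher under any. Without pairing, RLE scaling, library totals, no filter, a mean of at least 5 CPM and limma-trend on FPKM called 0 genes, as did the principal edgeR test, and DESeq2 called 172 higher and 163 lower with 0 of the 9. Leaving out 1 library gave 0 to 1302 genes higher, 0 to 1046 lower, 0 to 4 of the 9 lower, and 0 to 8 and 0 to 20 of the other pathway genes, with all calls coming from the fit without TGF-β replicate 1. There NFE2L2, TXNRD1, GSR and ME1 passed, beside 8.61% of all genes called lower. With the replicate block, edgeR called 1162 higher and 962 lower (3 of the 9 lower, 8 and 20 of the pathway genes). With the block DESeq2 called 684 and 454 (2, 7 and 8), library totals 877 and 1359 (5, 8 and 28), and limma-trend 337 and 352 (2, 5 and 12). DESeq2 without the block called 4 and 4 pathway genes. Without replicate 2 the block gave 680 higher and 561 lower, and leaving out each replicate number gave 539 to 1533 higher, 365 to 1313 lower, 2 to 5 of the 9 lower, and 6 to 9 and 7 to 24 pathway genes. Block fits without a replicate number rest on fewer libraries, so their p-values lean more on the spread shared over genes. The counts over the pathway lists were chosen after seeing the data. TXNRD1 and GSR passed in each of the 7 fits with the block, which called 2.94% to 11.4% of all genes lower. These 7 fits share the pairing taken from the counts and are not separate tests of it.

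The median log2 change of the 9 genes stayed below 0 under all 19 alternatives. It was -0.19 with library totals (-0.18 with the block), -0.13 with no filter and -0.18 with limma-trend in either form, from -0.20 to -0.11 with 1 library left out, and from -0.16 to -0.13 under the block with a replicate number left out. Uncalled changes near 0 turned sign: with 1 library left out GCLM spanned -0.0961 to 0.0395, SRXN1 -0.0736 to 0.0285 and TEK -0.0456 to 0.0122. Under the block without replicate 1, GCLM stood at 0.0530, SRXN1 at 0.0112 and TEK at 0.0141, and SRXN1 stood at 0.0230 without replicate 2. KEAP1 stood at 0.00580 under the block without replicate 2. CD68 was at -0.0835 with limma-trend in either form. Why they moved was not tested. The 9 genes had at least 191 counts in each library. GCLC, with 191 to 328 counts, had the widest SE of the 9 in the paired fit, at 0.12. How far depth limited it was not tested.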

Other observations

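The deposited annotation places 4 of the 9 genes, GCLC, GCLM, GSR and PGD, in the KEGG map of glutathione metabolism. Of 40 other tested genes of that map, 7 fell and 5 rose in the paired edgeR fit, beside 8.04% and 9.71% of all tested genes. The median log2 change of the 40 was -0.08. The genes that rose were GSTO1, PRDX6 and 3 enzymes of polyamine synthesis that the map also holds, a group looked at after the values were seen. ODC1, the ornithine decarboxylase that starts the pathway, had 122, 113 and 97.1 CPM in CXCL10 replicates 1, 2 and 3, against 93.7, 73.5 and 73.0 in TGF-β replicates 1, 2 and 3. Its paired log2 change was 0.47 (SE 0.06, edgeR adjusted p = 0.000194; 0.161 unpaired). The spermidine synthase SRM changed by 0.52 (SE 0.08) and the spermine synthase SMS by 0.37 (SE 0.05), with paired edgeR adjusted p of 0.000423 and 0.000311 and unpaired values of 0.210 and 0.184. For SRM and SMS the groups overlapped, since TGF-β replicate 1, at 137 and 159 CPM, exceeded CXCL10 replicates 2 and 3 in SRM and replicate 3 in SMS.

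Of 22 other tested genes of the KEGG pentose phosphate pathway, 3 rose and 1 fell in the paired fit, beside 9.71% and 8.04% of all tested genes. The median of the 22 was 0.00. The called genes were H6PD, GPI and ALDOA upward and PRPS1 downward, named after their values were seen. With library totals as the scaling the paired fit called 1 of the map higher and 3 lower, beside 877 and 1359 of all tested genes.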
